A study of Mus musculus with 72 samples.

Results

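The data described here are the liver transcriptomes of conventionally housed mice at zeitgeber time 22 (ZT22, late in the dark phase), with and without the core clock gene Bmal1 in hepatocytes. They were chosen by their labels, namely the libraries of SPF LKO and SPF WT mice at ZT22. These are 6 of the 72 libraries of the series, 3 for each genotype. The mice were adult C57BL/6 males, given as C57BL/6J in the study's methods. SPF mice were specific-pathogen free and kept a conventional gut microbiota, while germ-free (GF) mice of the same genotypes were raised without microbes. Both genotypes were Bmal1 fl/fl. The LKO mice also carried Albumin-Cre, which drives recombination in hepatocytes. Cells of the liver that do not express the transgene are not targeted, and Bmal1 was not measured by cell type. WT here therefore means floxed without Cre, and no group of Albumin-Cre mice without the floxed gene was analysed here. Other groups used for comparison were GF LKO and GF WT at ZT22 and the 30 SPF libraries of ZT2, ZT6, ZT10, ZT14 and ZT18.

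The circadian clock of the liver is a loop of transcription factors. BMAL1 (gene symbol Arntl) pairs with CLOCK or NPAS2 and activates genes with E-boxes, among them the Per, Cry and Nr1d repressors, which feed back on the activators. ROR and REV-ERB (Nr1d) proteins act in opposite directions on another class of sites, and the PAR bZIP activators DBP, TEF and HLF and the repressor NFIL3 act on the D-box. In WT liver the activator Arntl is most abundant around the end of the night, and Dbp and the Per3 repressor are then low.

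The libraries of SPF mice at ZT22 held 18779527 to 22076113 counts. Alb, which encodes serum albumin, had the most counts in each of them. It took 8.07%, 8.68% and 9.19% of the counts in the WT libraries and 3.41%, 3.37% and 3.13% in the LKO libraries. Hepatocyte markers were abundant, and in sum Kupffer cell markers ranged from 278 to 308 CPM (counts per 1000000, with TMM scaling over all libraries) in WT and from 258 to 300.0 CPM in LKO livers. Of the 12 lists of cell type markers, 1 gene was called, the hepatocyte marker Alb, where 3.31% of all genes tested were called. The summed markers of hepatocytes, cholangiocytes, adipocytes and T and NK cells did not overlap between genotypes. Single genes did not overlap in 18.7% of all those tested. The 10 hepatocyte markers, Alb among them, summed to 114666 to 123105 CPM in WT and 61231 to 63925 CPM in LKO livers. Alb alone stood at 81437 to 88036 CPM in WT and 26285 to 29932 CPM in LKO livers. The other 9 hepatocyte markers were not called, and the median log2 fold change of the 10 was -0.14. The 7 cholangiocyte markers summed to 39 to 55.2 CPM in WT and 58.8 to 112.6 CPM in LKO livers, and the 6 adipocyte markers to 3.46 to 6.32 and 2.08 to 2.6 CPM, with Lep, Plin1, Retn and Adipoq under 0.1 CPM in all 6. The 6 T and NK cell markers summed to 2.45 to 5.19 and 2.16 to 2.41 CPM. The part of these cells in the results was not tested. In bulk RNA, fewer cells of a type and less RNA per cell cannot be told apart.

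Which transcripts differed with loss of hepatocyte Bmal1 was asked first. At ZT22, 449 of 13576 genes tested differed between SPF LKO and SPF WT livers (edgeR quasi-likelihood test, adjusted p under 0.05), or 3.31% of those tested. Of these, 203 were higher in LKO (1.5%) and 246 lower (1.81%). Genes called higher had a median log2 fold change of 1.16 and genes called lower of -1.10, against 0.00 over all genes tested. The values of the 3 LKO and 3 WT libraries did not overlap for 446 of the 449, whereas 18.7% of all genes tested did not overlap (10.6% higher and 8.13% lower). The calls were made from these same values, so this contrast adds no separate support. With a log2 change of at least 1 as well, 254 genes were called (1.87%), 121 higher (0.891%) and 133 lower (0.98%). The first principal component of the 6 libraries, with 43.3% of the variance, separated the genotypes. The count fell to 281 without WT replicate 1 and to 293 without WT replicate 2, and it rose to 690 with DESeq2.

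The targeted gene itself was measured first among the activators. Arntl (chr7:113207465-113314126, GRCm38) stood at 33.7, 34.5 and 39.5 CPM in the WT livers and at 16.8, 13.8 and 12.3 CPM in the LKO livers. All 3 LKO values were below all 3 WT values, with a log2 fold change of -1.35 ± 0.15 (SE, n = 3 per group, edgeR adjusted p = 1.15e-04). The SE of a log2 fold change was derived from the change and its edgeR F statistic. It rests on a spread estimated over all groups of the fit, not on these 2 groups alone. The counts are per gene and include exons outside the deleted part, so they do not measure how complete the deletion was. Npas2, which can replace CLOCK as partner of BMAL1, moved the other way. It stood at 9.88, 9.89 and 7.78 CPM in WT and 28.8, 34.2 and 23.6 CPM in LKO livers, 3.10-fold higher (log2 1.63 ± 0.20, edgeR adjusted p = 2.65e-04). Clock, Rora and Arntl2 did not pass the test, with log2 fold changes of -0.13 ± 0.11, -0.10 ± 0.20 and 0.63 ± 0.33.

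Among the repressors, 3 of 8 tested were higher in LKO livers (37.5%, against 1.5% of all genes) and 1 was lower (12.5%, against 1.81%). Per2 stood at 10.2, 16.5 and 9.39 CPM in WT and 28.4, 24.4 and 38 CPM in LKO livers. Cry1 stood at 51.1, 41.6 and 24.2 CPM in WT and 70.1, 83.8 and 71.9 CPM in LKO livers. Cry2 stood at 19.8, 19.1 and 21.8 CPM in WT and 44.2, 42.7 and 45.4 CPM in LKO livers. These genes, whose products block the activators, had no overlap between genotypes, and Cry2 had the tightest replicates of the list. Their log2 fold changes were 1.31 ± 0.25 for Per2, 0.93 ± 0.20 for Cry1 and 1.10 ± 0.11 for Cry2, with edgeR adjusted p of 0.00744, 0.0180 and 3.24e-05. Cry1 lost its call without LKO replicate 2 (edgeR adjusted p = 0.0795).

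Nr1d2, the gene of REV-ERB-beta, fell. Its level was 19, 17.8 and 26.1 CPM in WT and 8.39, 7.88 and 10.1 CPM in LKO livers (log2 -1.28 ± 0.17, edgeR adjusted p = 6.17e-04). Its relative Nr1d1 was near its daily low in both genotypes, at 1.73, 1.96 and 5.6 CPM in WT and 1.38, 1.32 and 1.53 CPM in LKO livers, and did not pass the test. Per3 was 2.07, 2.45 and 2.09 CPM in WT and 3.70, 5.72 and 5.91 CPM in LKO livers. The Per3 groups did not overlap, but its edgeR adjusted p was 0.0687 (0.0125 with DESeq2). Per1 varied within each genotype more than between them, from 0.854 to 26 CPM in WT and from 4.30 to 33.1 CPM in LKO livers, and Bhlhe40 overlapped as well (log2 0.07 ± 0.25). Ciart and Bhlhe41, at most 0.664 CPM in each of the 6 libraries, were not tested.

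The D-box activators were higher where they differed. Tef stood at 51.3, 45.9 and 43.5 CPM in WT and 96.1, 91.3 and 92.1 CPM in LKO livers, 1.96-fold higher (log2 0.97 ± 0.12, edgeR adjusted p = 3.72e-04). Dbp was low in both genotypes, at 0.726, 0.930 and 0.569 CPM in WT and 1.85, 2.88 and 1.49 CPM in LKO livers (log2 1.46 ± 0.34, edgeR adjusted p = 0.0329). The Dbp call was lost when any of 5 of the 6 libraries was left out, with adjusted p of 0.0574 to 0.166, and kept only without LKO replicate 3. Hlf (log2 0.10 ± 0.16) and the D-box repressor Nfil3 did not pass the test. Nfil3 stood at 63.5, 37.8 and 44 CPM in WT and 27.8, 33.1 and 33.7 CPM in LKO livers, with no overlap and an edgeR adjusted p of 0.131 (0.0489 with DESeq2).

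**Figure D1:**
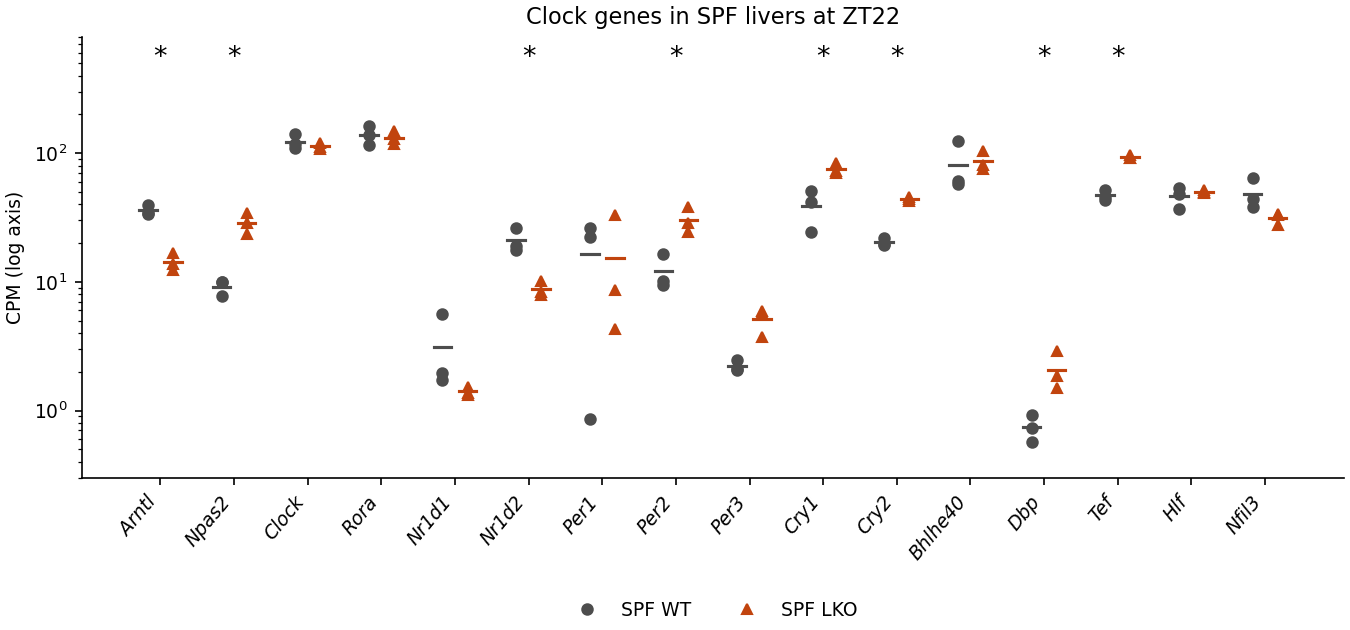
CPM of 16 clock genes (log axis) in the 3 SPF WT (circles) and 3 SPF LKO (triangles) libraries of ZT22, with bars at the group means and stars at edgeR adjusted p under 0.05. Arntl and Nr1d2 were lower in LKO livers, while Npas2, Per2, Cry1, Cry2, Dbp and Tef were higher, and Per1 spread over the whole range within a genotype.

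Promoter sequence was read for genes with an entry in a RefSeq table of GRCm38.p6, which covered 10223 of the 13576 genes tested. The 250 bases before each start site were searched on both strands for the E-box CACGTG, the related CACGTT or AACGTG, the D-box TTATGTAA or TTATGCAA, and the ROR core TAGGTCA. The clock genes that rose and hold a match are shown with the match in capitals, since these are the letters through which the activator pair and its relatives are known to act. Each window lies outside annotated exons, and for Tef the window belongs to the downstream of its start sites.
Cry1 (chr10:85185079-85185163, minus strand): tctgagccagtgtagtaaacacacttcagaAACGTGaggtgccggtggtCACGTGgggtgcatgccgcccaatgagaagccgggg
Cry2 (chr2:92434200-92434265, minus strand): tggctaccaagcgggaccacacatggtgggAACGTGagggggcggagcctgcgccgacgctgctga
Tef (chr15:81811246-81811311, plus strand): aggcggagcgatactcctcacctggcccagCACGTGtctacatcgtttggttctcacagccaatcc

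E-boxes stood in a similar share of the promoters of changed genes and of all genes. CACGTG was held by 8% of 225 promoters of genes called lower, 9.28% of 194 promoters of genes called higher and 8.07% of 13109 promoters of all genes tested. The related form was held by 4%, 3.09% and 4.33%, and the ROR core by 2.22%, 1.55% and 1.85%. The D-box differed from these. It was held by 6.67% of the promoters of genes called lower (15 promoters of 14 genes), by 1.03% of those of genes called higher (2 promoters) and by 1.11% of all. The 14 genes were Ak4, Alb, Ccdc107, Ces1b, Ces1e, Cyp2a5, Esrrg, Gda, Gde1, Gm19522, Gstt1, Pbld2, Rbp4 and Slc1a2, and the 2 called higher were C9 and Prlr (named after their values were seen). A match is only a run of letters and does not show that a factor binds there. Windows of 4 of the genes that fell are shown with the D-box in capitals, on either strand.
Alb (chr5:90460620-90460703, plus strand): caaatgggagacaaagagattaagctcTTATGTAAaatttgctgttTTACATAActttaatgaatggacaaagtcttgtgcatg
Ces1b (chr8:93080116-93080183, minus strand): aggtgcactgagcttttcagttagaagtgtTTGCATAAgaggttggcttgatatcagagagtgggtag
Ces1e (chr8:93229663-93229730, minus strand): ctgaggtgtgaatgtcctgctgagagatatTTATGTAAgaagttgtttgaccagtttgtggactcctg
Gm19522 (chr16:42912108-42912175, minus strand): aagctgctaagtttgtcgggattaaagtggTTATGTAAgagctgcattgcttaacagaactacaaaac

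These 4 genes had the following levels. Alb stood at 84589, 81437 and 88036 CPM in WT and 29932, 29735 and 26285 CPM in LKO livers (log2 -1.58 ± 0.17, edgeR adjusted p = 1.00e-04). Only the LKO mice carried Albumin-Cre, and the part of this transgene in the level of Alb was not tested. Gm19522, a predicted gene, was 9.21, 11.6 and 7.78 CPM in WT and 0.775, 1.12 and 1.45 CPM in LKO livers (log2 -3.11 ± 0.26). Both genes had replicate values far closer to each other than the genotypes were. Ces1b and Ces1e belong to a cluster of carboxylesterase genes, enzymes that split esters of lipids and drugs. Ces1b stood at 117, 68.1 and 99.2 CPM in WT and 17.8, 25.2 and 16.5 CPM in LKO livers (log2 -2.28 ± 0.25, edgeR adjusted p = 1.00e-04). Ces1e stood at 293, 241 and 291 CPM in WT and 125, 120.3 and 109 CPM in LKO livers (log2 -1.24 ± 0.11, edgeR adjusted p = 2.58e-05). Of 13 carboxylesterases tested, 3 fell (23.1%, against 1.81% of all genes) and 0 rose, the other that fell being Ces1d (log2 -1.93 ± 0.17). Ces1 genes are near-identical copies, and reads that align to several of them were not counted, so their values are uncertain.

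The 2 largest named increases were in genes under 1 CPM in every WT liver. Ntrk2, the receptor of brain-derived neurotrophic factor, stood at 0.447, 0.392 and 0.901 CPM in WT and 45.8, 75.7 and 47.3 CPM in LKO livers, 93.5-fold higher (edgeR adjusted p = 1.63e-05). Tox2, a nuclear protein of the HMG-box class, stood at 0.391, 0.392 and 0.190 CPM in WT and 12.7, 16.9 and 8.98 CPM in LKO livers, 38.8-fold higher (edgeR adjusted p = 1.94e-06). Every LKO library held both transcripts far above every WT library. Some separation was fixed in advance, since the largest increases were picked among called genes without overlap. Lpl, lipoprotein lipase, which releases fatty acids from circulating triglyceride, stood at 28.5, 45.3 and 62.8 CPM in WT and 688, 601 and 655 CPM in LKO livers. Its log2 fold change was 3.81 ± 0.26, 14.0-fold (edgeR adjusted p = 2.24e-06). Adipocytes also make Lpl, and their summed markers are given above. Their part in the level of Lpl was not tested.

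Others among the 12 largest increases were enzymes, a transporter and signalling proteins. The P450 enzyme Cyp2c55 rose 11.8-fold, the phosphate transporter Slc34a2 10.5-fold, the glutathione transferase Gstm3 10.2-fold, the predicted gene Gm379 9.32-fold and the lysyl oxidase relative Loxl4 9.31-fold. Astn2 rose 8.39-fold, the receptor kinase Grk5 7.89-fold, the tubulin gene Tuba8 7.09-fold and the antisense gene Hectd2os 6.98-fold. Hectd2os overlaps Hectd2, which was higher too (log2 1.25 ± 0.25), and the counting did not use the strand, so the 2 cannot be told apart fully. All these genes had edgeR adjusted p of 0.00403 or less. A lack of overlap between genotypes was a condition for being among the 12 largest increases.

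The largest decreases held lipid, steroid and conjugation enzymes. Rgs16, a brake on G protein signalling that follows feeding and the clock in liver, stood at 20.9, 14.1 and 6.55 CPM in WT and 0.0861, 0.240 and 0.468 CPM in LKO livers (log2 -5.69 ± 0.84, edgeR adjusted p = 0.00127). Mme, the membrane peptidase neprilysin, stood at 104, 124 and 90.0 CPM in WT and 5.03, 10.6 and 4.17 CPM in LKO livers (log2 -4.03 ± 0.29, edgeR adjusted p = 3.50e-06). Neither gene overlapped between genotypes, which the choice of the largest decreases required. Rgs16 in WT replicate 3 was below the other WT livers. Nat8, which completes the mercapturic acid pathway, fell by 3.86 ± 0.41 on the log2 scale, and Cyp17a1, a steroid hydroxylase, fell by 2.98 ± 0.50. Rcan2, a regulator of calcineurin, fell by 3.11 ± 0.33, and the glucuronosyltransferase gene Ugt1a9, which shares exons with its neighbours, fell by 2.53 ± 0.31.

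The major urinary protein genes Mup17 and Mup16 were also among the largest decreases, but their WT libraries disagreed. Mup17 stood at 152, 200.2 and 12 CPM in WT and 2.84, 1.84 and 3.11 CPM in LKO livers. WT replicate 3 was thus nearer to the LKO livers than to the other WT livers. Mup16 had the same order, with 41.5, 53 and 6.55 CPM in WT and 4.35, 3.92 and 5.19 CPM in LKO livers, and Gm13775, which lies close to them on chromosome 4, fell by 2.69 ± 0.40 on the log2 scale. Mup genes are near-identical copies, and their counts are uncertain.

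Fatty acid oxidation was the list with the most calls. Of 47 genes of fatty acid oxidation and targets of PPARA, the receptor that induces them in fasting, 20 fell and 0 rose, or 42.6% lower against 1.81% of all genes tested. The median log2 fold change of the list was -0.48, against 0.00 over all genes tested. Of its members 44 had a negative and 3 a positive log2 fold change. The calls numbered 12 without WT replicate 1 or without LKO replicate 3.

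The fatty acid omega-hydroxylases led this list together with the acyl-CoA thioesterases. Cyp4a14 stood at 996, 1051 and 1653 CPM in WT and 174, 97.7 and 101 CPM in LKO livers, 10.1-fold lower (log2 -3.33 ± 0.27, edgeR adjusted p = 1.10e-05). Cyp4a10 stood at 502, 505 and 769.8 CPM in WT and 103, 54.6 and 79.6 CPM in LKO livers, 7.60-fold lower (edgeR adjusted p = 1.00e-04). Acot3 stood at 12.2, 3.52 and 3.04 CPM in WT and 0.172, 0.200 and 0.128 CPM in LKO livers. The 3 genes did not overlap between genotypes, which was required of the 2 hydroxylases as members of the largest decreases. The WT library high for the 2 hydroxylases, replicate 3, was not the one high for Acot3. Acot1 fell by 2.02 ± 0.25 on the log2 scale, Acot2 by 1.36 ± 0.27 and Acot4 by 1.35 ± 0.26. Aldh3a2, which oxidises fatty aldehydes, stood at 519, 367 and 374 CPM in WT and 119, 137 and 89.3 CPM in LKO livers (log2 -1.89 ± 0.18, edgeR adjusted p = 3.24e-05).

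Peroxisomal enzymes fell with them. Acaa1b, a peroxisomal thiolase, fell by 1.45 ± 0.18 and Ehhadh by 0.92 ± 0.13 on the log2 scale. Vnn1, a pantetheinase that PPARA induces, fell by 1.19 ± 0.21. Genes of mitochondrial import and oxidation were called as well. The carnitine carrier genes Slc22a5 and Slc25a20 fell by 1.0 ± 0.21 and 0.71 ± 0.12, and the acyl-CoA dehydrogenase genes Acadl and Acadm by 0.48 ± 0.10 and 0.43 ± 0.11. Cpt1a, which sets the rate of entry into mitochondria, stood at 335, 284 and 232 CPM in WT and 233, 199 and 199.7 CPM in LKO livers, overlapped by 1 library, and did not pass the test (edgeR adjusted p = 0.206). The receptor gene Ppara itself did not pass it either, at 79.0, 99.0 and 76.9 CPM in WT and 50.2, 78 and 75.5 CPM in LKO livers (edgeR adjusted p = 0.391). Pdk4 had the largest positive value of the list (log2 1.18 ± 0.33, edgeR adjusted p = 0.0730).

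**Figure D2:**
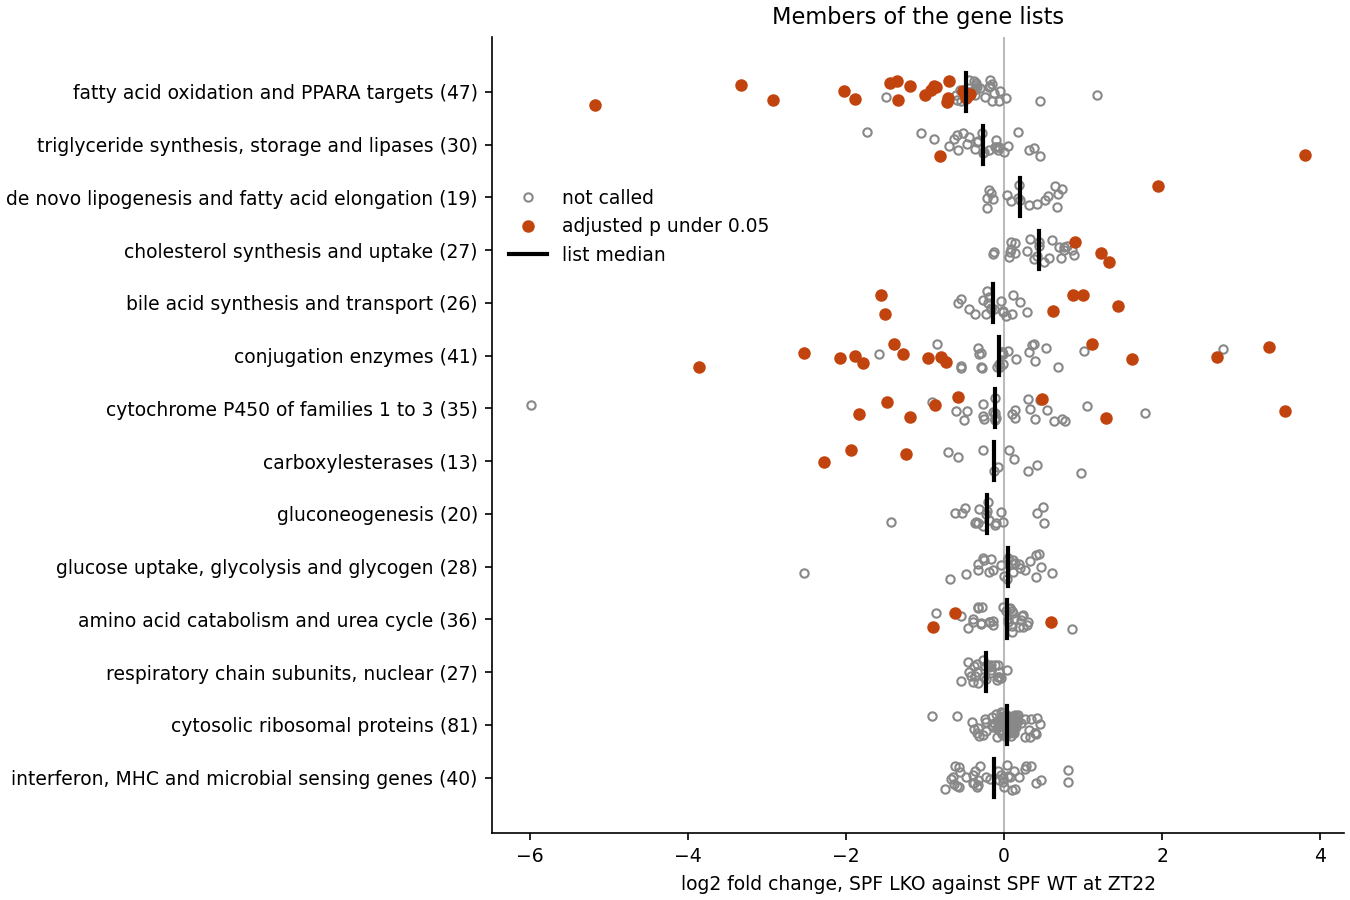
log2 fold change of SPF LKO against SPF WT at ZT22 (x axis) for the members of 14 gene lists (y axis, with the number tested), filled where the edgeR adjusted p was under 0.05, with the list median as a bar. The 20 called members of the fatty acid oxidation list all lie below 0, those of the conjugation list lie on both sides, and no ribosomal, respiratory chain or gluconeogenesis gene was called.

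Conjugation enzymes split by family. Of 41 tested, 4 rose and 10 fell, a share of 9.76% and 24.4% against 1.5% and 1.81% of all genes. Those that rose were the mu-class glutathione transferases Gstm1, Gstm2, Gstm3 and Gstm6. Gstm3 stood at 40.2, 20.8 and 47.2 CPM in WT and 317, 556 and 249.7 CPM in LKO livers, and Gstm2 at 36.5, 21.4 and 29.4 CPM and 162, 254 and 158 CPM. Those that fell included the alpha and theta classes, with Gsta2 at a log2 fold change of -1.89 ± 0.25, Gstt2 at -2.08 ± 0.26, Gsta4 at -1.28, Gsta3 at -0.96 and Gstt1 at -0.74. Sult1a1, a sulfotransferase, and Ugt1a1, which conjugates bilirubin, fell as well. Members of these families are similar in sequence, and a part of their reads may have been left out of the counts.

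Cytochrome P450 genes of families 1 to 3 moved both ways, with 3 higher (8.57%, against 1.5% of all genes) and 5 lower (14.3%, against 1.81%) of 35. Cyp2c55 stood at 15.9, 12.1 and 16.7 CPM in WT and 171, 240.2 and 124 CPM in LKO livers. Cyp3a59 rose by a log2 fold change of 1.29 ± 0.24. Cyp2a5, a coumarin hydroxylase, stood at 434, 140.0 and 172 CPM in WT and 67.5, 99.2 and 45 CPM in LKO livers (log2 -1.84 ± 0.39, edgeR adjusted p = 0.0185). That call was lost without WT replicate 1, LKO replicate 1 or LKO replicate 3, with adjusted p of 0.0748 to 0.0822, and without WT replicate 1 the log2 fold change was -1.17. Cyp2d40 fell by 1.48 ± 0.14 on the log2 scale. The xenobiotic receptor gene Nr1i3 (CAR) was 1.70-fold lower (edgeR adjusted p = 0.0446) and lost that call without any of 5 of the 6 libraries (0.0969 to 0.197), WT replicate 3 being the exception.

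Cholesterol synthesis genes leaned upward. Of 27 tested, 3 rose and 0 fell, 11.1% against 1.5% of all genes, and 25 had a positive log2 fold change, with a median of 0.45. Lss, which closes the sterol ring, stood at 38.2, 43.4 and 54.9 CPM in WT and 112, 147 and 87.9 CPM in LKO livers (log2 1.32 ± 0.23, edgeR adjusted p = 0.00396). Mvd stood at 13.7, 13 and 16.1 CPM in WT and 34.9, 41.2 and 25.8 CPM in LKO livers (log2 1.23 ± 0.22). Sqle, which makes squalene epoxide, was 1.86-fold higher (edgeR adjusted p = 0.0386) and lost that call without any of 5 of the 6 libraries (0.0605 to 0.177), LKO replicate 3 being the exception. The number called in this list depended on the fit. It was 9 with DESeq2, 5 without WT replicate 3, 6 without LKO replicate 3 and 1 when all 72 libraries were fitted together.

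Bile acid genes held calls in both directions, 4 higher (15.4%, against 1.5% of all genes) and 2 lower (7.69%, against 1.81%) of 26. Cyp7b1, an enzyme of the alternative route of bile acid synthesis, stood at 313, 366 and 159.6 CPM in WT and 695, 749 and 871 CPM in LKO livers (log2 1.44 ± 0.26, edgeR adjusted p = 0.00601). The sterol exporter genes Abcg5 and Abcg8 rose by log2 fold changes of 0.99 ± 0.17 and 0.87, and the transporter Slco1a4 by 0.61 ± 0.14. Nr0b2 (SHP), the repressor induced by bile acids, stood at 60.3, 35.9 and 38.1 CPM in WT and 20.7, 12.4 and 13.2 CPM in LKO livers (log2 -1.56 ± 0.25, edgeR adjusted p = 0.00226). Cyp39a1, an oxysterol hydroxylase, fell by 1.51 ± 0.23 on the log2 scale.

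Other lipid lists held 1 or 2 calls each. Among 19 genes of lipogenesis only Scd2, a desaturase, was called (5.26% higher, against 1.5% of all genes). It stood at 6.31, 4.85 and 8.97 CPM in WT and 28.1, 30.2 and 20.3 CPM in LKO livers (log2 1.94 ± 0.26). In the list of triglyceride synthesis, storage and lipases, 2 of 30 were called, Lpl and Fabp1. That was 3.33% higher and 3.33% lower, against 1.5% and 1.81% of all genes. Fabp1, the fatty acid binding protein of liver, stood at 4492, 4012 and 4249.5 CPM in WT and 3483, 1659 and 2210.5 CPM in LKO livers (edgeR adjusted p = 0.0447). Its call was lost without any of 5 of the 6 libraries (0.0769 to 0.148), LKO replicate 1 being the exception. Among 8 lipid and iron genes linked to ROR sites Lpl and Fabp1 were again the 2 called (12.5% higher and 12.5% lower). Of 18 clock output genes only Rgs16 and Rcan2 were called (11.1% lower, against 1.81% of all genes).

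Glucose genes were not called at ZT22. Of 20 gluconeogenesis genes and 28 genes of glucose uptake, glycolysis and glycogen, 0 passed the edgeR test, while 6 and 8 had an unadjusted p under 0.05. Of all 13576 genes tested, 1966 had such an unadjusted p. With no filter on low counts 4 and 6 of them were called, and with DESeq2 0 and 2. Of the gluconeogenesis genes 17 had a negative and 3 a positive log2 fold change, with a median of -0.22. In the list of glucose uptake, glycolysis and glycogen 12 were negative and 16 positive, with a median of 0.05. Pck1, the rate-limiting enzyme of gluconeogenesis, stood at 3386, 2587 and 719.9 CPM in WT and 692, 1687 and 2040.0 CPM in LKO livers. The spread within each genotype was larger than the difference between them (log2 -0.62 ± 0.57, edgeR adjusted p = 0.695). Fbp1 and Pck2 had log2 fold changes of -0.26 ± 0.15 and 0.50 ± 0.21, Eno1 of -0.32 ± 0.14, Pgk1 of -0.36 ± 0.13 and the glucokinase regulator Gckr of 0.61 ± 0.18, with edgeR adjusted p of 0.0945 to 0.479. DESeq2 called Gckr (adjusted p = 0.0329).

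In the remaining lists the calls were few in number. Of 36 genes of amino acid catabolism and the urea cycle, Cbs rose and Asl and Prodh2 fell, shares of 2.78% and 5.56% against 1.5% and 1.81% of all genes. Cbs lost its call in 4 and Asl in 3 of the 6 fits that left out 1 SPF library (WT replicates 1 and 2 and LKO replicates 2 and 3 for Cbs, with adjusted p up to 0.130, and WT replicate 2 and LKO replicates 1 and 3 for Asl, up to 0.0846). Among 34 liver hormones and acute phase proteins the stress hormone Gdf15 fell by 2.41 ± 0.43, Orm3 by 2.02 ± 0.39 and the peptide hormone gene Enho by 1.90 ± 0.26 on the log2 scale, while Itih3 rose by 0.73 ± 0.16. These calls were 2.94% of that list higher and 8.82% lower, against 1.5% and 1.81% of all genes. The Itih3 call was lost without WT replicate 1, LKO replicate 2 or LKO replicate 3 (0.0655 to 0.0775). Of 32 genes of the growth hormone axis and sex-biased genes, 2 rose (6.25%, against 1.5% of all genes) and 3 fell (9.38%, against 1.81%). Cyp7b1, Mup17, Acot3 and Cyp17a1 are already described, and Hsd3b5 was higher (log2 0.91). The heat shock gene Hspb1 fell by 1.72 ± 0.38 (edgeR adjusted p = 0.0223), the antioxidant gene Gpx1 by 0.82 ± 0.18 (0.0206), and in the list of NAD and coenzyme A synthesis only Vnn1 was called. Each was the only call of its list, or 5%, 5.26% and 4.76% lower, against 1.81% of all genes. Hspb1 lost its call without any of 5 libraries, WT replicate 3 being the exception (0.0566 to 0.119), and Gpx1 without 4, WT replicates 1 and 2 and LKO replicates 2 and 3 (0.0579 to 0.0930).

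Among 23 cell cycle genes only Myc was called (4.35% higher, against 1.5% of all genes). Myc stood at 2.46, 1.57 and 3.51 CPM in WT and 12.3, 45.4 and 3.36 CPM in LKO livers. Its groups overlapped, and the call was lost without LKO replicate 2 or any WT replicate (0.0515 to 0.184). Without LKO replicate 2 the log2 fold change was 1.6. None of 40 interferon, MHC and microbial sensing genes, 27 nuclear subunits of the respiratory chain, 81 ribosomal proteins, 19 genes of endoplasmic reticulum stress or 16 glucocorticoid-responsive genes passed the edgeR test, with 7, 9, 2, 2 and 4 of them at an unadjusted p under 0.05. Over all 13576 genes tested that number was 1966. The members with the smallest p were Oasl1 (log2 0.81 ± 0.24), Ndufb8 (-0.39 ± 0.13), Rpl22l1 (0.40 ± 0.15), Trib3 (-1.94 ± 0.56) and Mt1 (-2.58 ± 0.71), in the same order. Oasl1, Trib3 and Mt1 were called by DESeq2, with adjusted p of 0.0291, 0.00624 and 0.0333.

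How the changes related to the daily course of expression was examined next, in GF WT livers, which are on neither side of the SPF comparison. Those of ZT22 did enter its estimate of the spread and its filter on low counts. Of the 246 genes called lower, 21.1%, 25.6% and 22.4% had their highest mean log2 CPM in GF WT livers at ZT14, ZT18 and ZT22, against 15.1%, 16.8% and 15.1% of all genes tested. Only 6.91% of them had it at ZT2. Of the 203 genes called higher, 40.4% had their highest level at ZT2 (17.2% of all genes tested) and 20.2% at ZT22. The lowest level of genes called higher fell most often at ZT14 (32%, against 18.5% of all). Without GF WT replicate 3 of ZT6, a library doubted from earlier results and left out in an alternative added after seeing the data, the share of genes called higher with their highest level at ZT2 was 36.9%. These are descriptions with no test. Among the genes named above, Arntl, Npas2, Nfil3, Cyp4a10, Cyp4a14, Ces1b and Ces1e were highest at ZT22 in GF WT livers, and Tef, Dbp, Per3 and Nr1d2 at ZT10.

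**Figure D3:**
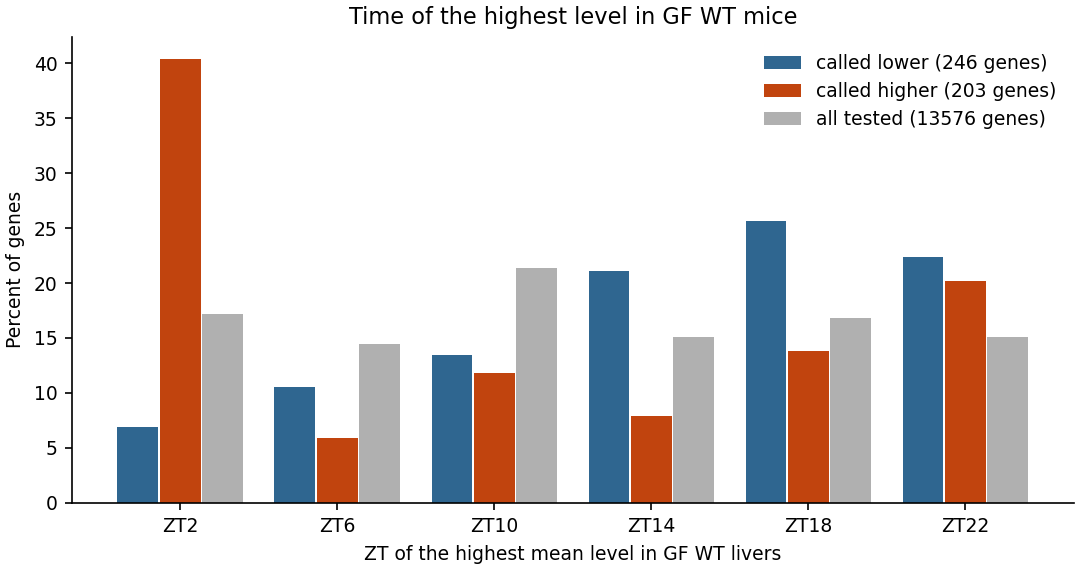
Percent of genes (y axis) whose mean log2 CPM in GF WT livers was highest at each ZT (x axis), for the 246 genes called lower and 203 called higher in SPF LKO livers at ZT22 and for all 13576 genes tested. Genes called lower were most often highest from ZT14 to ZT22, and 40.4% of genes called higher were highest at ZT2.

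Whether the effect of genotype at ZT22 was that of the whole day was asked within SPF mice. Of the SPF libraries of other times, 3 stood apart. LKO ZT14 replicate 2 and LKO ZT18 replicate 1 held Npas2 at 0.221 and 1.83 CPM and Lpl at 20.8 and 34.2 CPM. The other 16 SPF LKO libraries held 14.4 to 36.4 and 555 to 917 CPM, and the other 17 SPF WT libraries 0 to 9.89 and 16.8 to 62.8 CPM, so these 2 libraries went against their labels on both genes. WT ZT14 replicate 3 held Npas2 at 0.206 CPM and Lpl at 52.6 CPM, within the WT ranges, but Mme at 32.6 CPM, where the other SPF WT libraries held 52.1 to 146 CPM and the other SPF LKO libraries 2.1 to 10.9 CPM. None was from ZT22. At the mean of the other 5 times 3549 of 14442 genes differed between SPF LKO and SPF WT (24.6%), from 5 times as many libraries. Of the 449 genes of ZT22, 404 were called there in the same direction, 90.0% of the calls at ZT22 and 11.4% of those at the other times. The sign was the same for 441 genes.

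The exceptions were 8 genes with opposite signs at ZT22 and at the other times, and 4 of them were called in both. Arntl, lower at ZT22, was higher in LKO livers in the mean over the other times (log2 0.80 ± 0.20, edgeR adjusted p = 0.00403). In WT livers it fell from 35.9 ± 3.1 CPM (mean ± SD, n = 3) at ZT22 to 1.27 ± 0.60 CPM at ZT10, while in LKO livers it stayed between 9.02 and 17.5 CPM on average. The 17.5 CPM was the mean of LKO livers at ZT18, with an SD of 10.2 CPM and a range of 11.4 to 29.3 CPM. That group included LKO ZT18 replicate 1, which stood apart. The residual transcript in LKO livers thus lay above WT at ZT6 and ZT10 and below it at ZT22. Tef and Dbp, higher at ZT22, were lower over the other times, with log2 fold changes of -0.51 ± 0.08 and -1.74 ± 0.29. Serpinb1a, an inhibitor of neutrophil proteases, was also called in both, and its call at ZT22 was lost without LKO replicate 3 (0.0501). The others, Per2, Wrnip1, Crot and Gm15611, were not called over the other times, the last 2 being named here after their values were seen. Wrnip1 lost its call at ZT22 without any of 5 libraries (0.0564 to 0.119), WT replicate 3 being the exception.

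The difference itself, ZT22 minus the mean of the other times, was tested for every gene. It passed for 4 of 14442 genes (0.0277%), Tef being higher (0.00692%) and Serpinb1a, Pnrc1 and Clpx lower (0.0208%), with 841 genes at an unadjusted p under 0.05 and 23 genes called by DESeq2. For comparison, 5% of the genes tested is 722. In simulated counts this test recovered 59 of 100 differences of 2-fold and 85 of 100 of 4-fold, so it missed a part of them. Tef was 1.48 ± 0.21 higher on the log2 scale in this difference (edgeR adjusted p = 0.00107). In WT livers Tef ranged from 272 ± 33 CPM at ZT10 to 46.9 ± 4.0 CPM at ZT22, whereas LKO livers ranged from 87.0 to 134 CPM. Clpx, which encodes a chaperone of mitochondrial protease, and Pnrc1, a nuclear receptor coregulator, showed no difference past the test at ZT22 but were higher in LKO livers at the other times (log2 1.57 ± 0.13 and 1.02 ± 0.09). Clpx in WT livers ranged from 80.1 ± 6.8 CPM at ZT10 to 532 ± 95 CPM at ZT22, a level close to the 525 ± 42 CPM of LKO livers. Serpinb1a stood at 17.9, 16.9 and 12.7 CPM in WT and 5.98, 6.56 and 4.72 CPM in LKO livers at ZT22, but was higher in LKO livers at the other times (log2 0.87 ± 0.16).

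Behind these 4 genes, Cry2, Gdf15, Per3 and Wrnip1 had the smallest p for the difference, with edgeR adjusted p of 0.0639 to 0.0896. Without the 3 SPF libraries that stood apart the count was 45, and it included Cry2, Per3, Gdf15 and Wrnip1. Leaving out WT replicate 1, WT replicate 2, LKO replicate 1 or LKO replicate 3 of ZT22 left 1 gene, Tef, and Clpx was lost without LKO replicate 2 as well. Against ZT2, ZT6 and ZT10 alone the count was 23. Npas2 had the largest fitted difference among the clock genes (log2 -4.06 ± 0.98) but did not pass the test (edgeR adjusted p = 0.241). On the log2 scale LKO livers were above WT by 1.63 ± 0.20 at ZT22 and by 5.69 ± 0.50 at the other times. The latter value rests on WT levels as low as 0 CPM. It includes the 2 LKO libraries that went against their labels on Npas2.

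**Figure D4:**
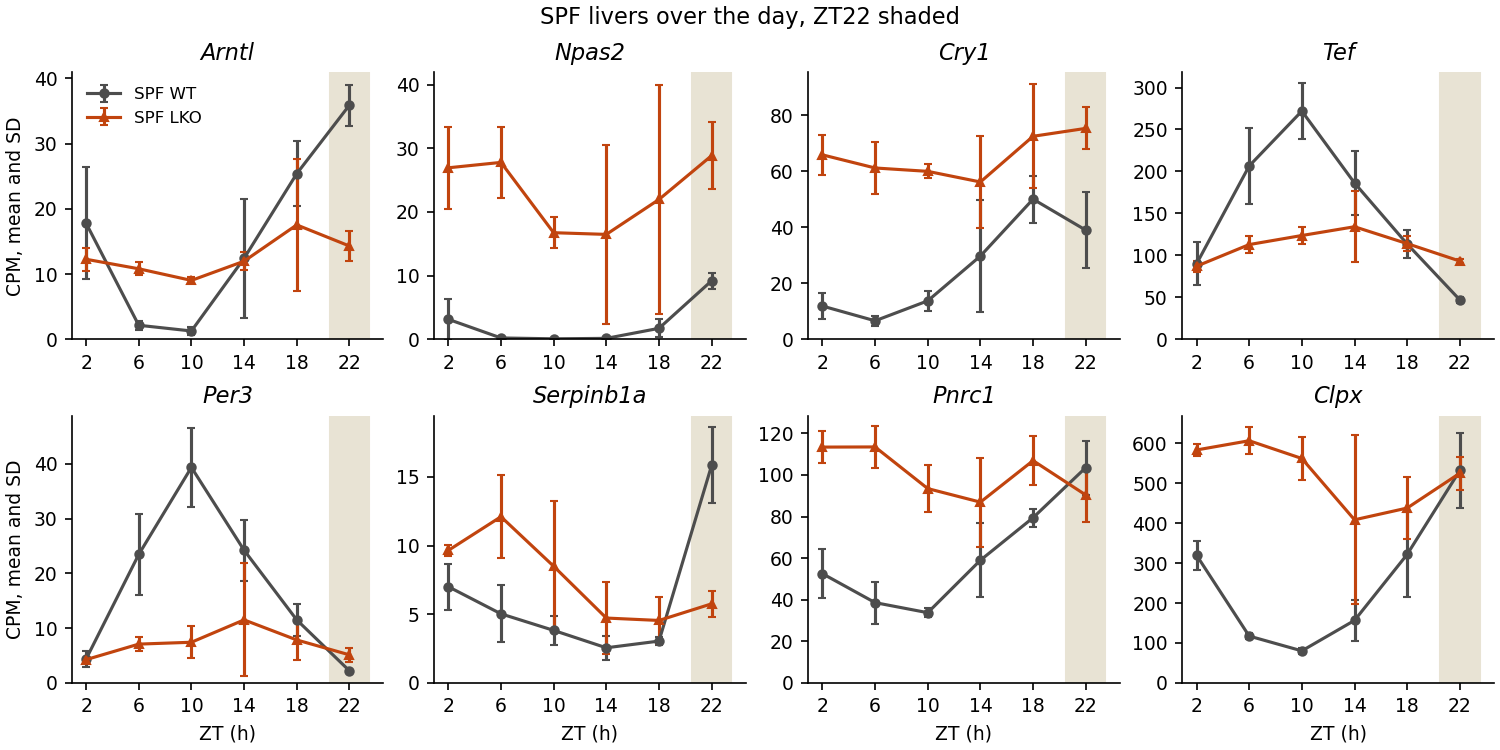
Mean CPM ± SD (y axis, n = 3 per point) of 8 genes in SPF WT (circles) and SPF LKO (triangles) livers by ZT in hours (x axis), with ZT22 shaded. Arntl, Npas2, Serpinb1a, Pnrc1 and Clpx reached their highest WT level at ZT22, while Tef and Per3 reached their lowest. The 3 libraries that stood apart are included at ZT14 and ZT18.

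The same comparison in GF mice shows which changes were found without microbes. The GF libraries of ZT22 are other mice, on neither side of the SPF comparison. Both comparisons came from the same fit of the 12 libraries of ZT22 and shared its estimate of the spread. In GF mice 603 of 13576 genes differed between LKO and WT (4.44%), 263 higher (1.94%) and 340 lower (2.5%). Of these 309 were called in SPF mice too, all in the same direction, or 68.8% of the SPF calls and 51.2% of the GF calls. The sign was the same in GF as in SPF mice for 446 of the 449 SPF calls, against 64.4% of all genes tested, and the exceptions, named after their values were seen, were Rasd1, Hsd17b6 and Gm34667. Lpl, for example, stood at 78.1, 60.9 and 48.3 CPM in GF WT and 1011, 840.2 and 801 CPM in GF LKO livers. Of the fatty acid oxidation list, 29 fell and 0 rose in GF mice, against 20 and 0 in SPF mice.

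The difference between the housings, GF minus SPF, passed the test for 2 of 13576 genes (0.0147%), with 514 genes at an unadjusted p under 0.05 and 11 called by DESeq2. For comparison, 5% of the genes tested is 679. In simulated counts this test recovered 39 of 100 differences of 2-fold and 81 of 100 of 4-fold. Genes not called here may thus still differ. Ces1e fell in both housings but further in GF mice. In GF mice it stood at 405, 395 and 377 CPM in WT and 56, 66.7 and 67 CPM in LKO livers, and the difference of the log2 fold changes was -1.39 ± 0.16 (edgeR adjusted p = 0.00817). Gpx6, a glutathione peroxidase, stood at 1.0, 1.62 and 1.85 CPM in SPF WT and 0.344, 0.480 and 0.681 CPM in SPF LKO livers, but at 12.1, 11.3 and 12.5 CPM in GF WT and 0.479, 0.467 and 0.373 CPM in GF LKO livers. The LKO values of both housings overlapped and the WT values did not (difference -3.15 ± 0.42, edgeR adjusted p = 0.0247). The Gpx6 call was lost in 8 of the 12 fits that left out 1 library (0.0804 to 0.162), namely each GF WT library, GF LKO replicates 1 and 3, SPF WT replicate 2 and SPF LKO replicates 2 and 3.

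Next by p were Ces1d, Mtnr1a, Cyp3a11 and Ces1f, each with an edgeR adjusted p of 0.433, and all 4 were called by DESeq2. Cyp3a11, the main drug-metabolising P450 induced through the pregnane X receptor, overlapped between SPF genotypes, at 6754, 6863 and 7379 CPM in WT and 7234, 7941 and 4563 CPM in LKO livers. In GF mice it was far lower and did not overlap, at 1122, 715 and 743 CPM in WT and 138, 302 and 163 CPM in LKO livers. Mtnr1a, a melatonin receptor, stood at 2.57, 1.52 and 1.61 CPM in SPF WT and 8.35, 7.84 and 5.06 CPM in SPF LKO livers. GF WT livers held more of it than SPF WT livers, at 4.79, 4.99 and 5.35 CPM, and GF LKO livers held 6.02, 6.19 and 6.08 CPM.

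**Figure D5:**
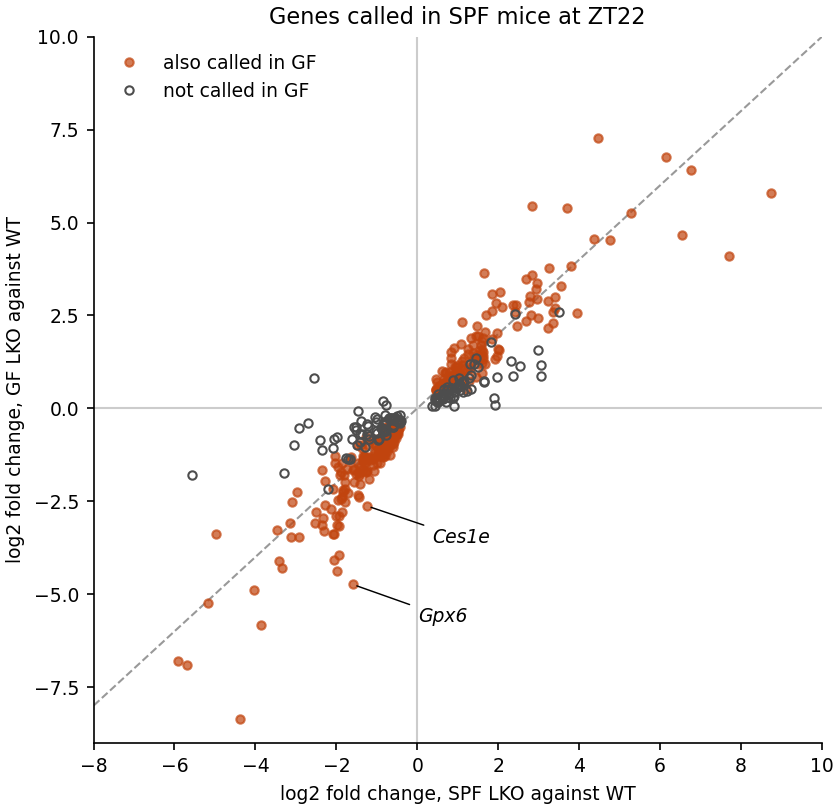
log2 fold change of LKO against WT at ZT22 in SPF mice (x axis) and GF mice (y axis) for the 449 genes called in SPF mice, filled where also called in GF mice (309 genes), with a dashed line of equal change. Nearly all points lie at the lower left and upper right, and the labelled Ces1e and Gpx6 lie below the line.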

How the data were processed

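Counts of reads per gene were deposited by the authors without normalization. Per the labels and the study's methods, single-end reads were aligned with STAR 2.6.1b to mm10 (GRCm38) and counted with featureCounts 2.0.0 on exons of Ensembl release 97, without strand, multimapping or multi-overlapping reads. No library was left out, and 0 columns were unused. Tests used edgeR 4.0.16 (R 4.3.3) with TMM factors, filterByExpr, quasi-likelihood and Benjamini-Hochberg adjustment at 0.05, on the 12 libraries of ZT22 with 4 group means, or on 36 SPF libraries with 12 group means for differences between times. DESeq2 1.42.0 served as an alternative. Levels are CPM with TMM factors over 72 libraries, and log2 CPM used a prior count of 2. Self-tests were run on simulated data. For SPF LKO against SPF WT at ZT22 they recovered 76 of 100 changes of 2-fold and called 10 unchanged genes. Members and gene lists were chosen with earlier results of these data known. Named genes were the clock genes, the 12 largest increases and decreases with mean log2 CPM of at least 1 and no overlap, up to 4 called members of each list (or the smallest p), 8 genes the study plotted, and the 6 and 8 smallest p for the differences by housing and time. Other members of lists are named to describe them and were chosen after their values were seen. Some genes that the rule names are not reported here. Whether replicates came from separate litters was not stated, and p-values measure the spread between these livers. Promoter sequences are from RefSeq, GRCm38.p6, with 75 of 96 named genes matched.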

Additional observations from a re-analysis of the deposited data

Results flagged for a closer look

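The results given here differed between groups by a test of the difference itself, from edgeR's quasi-likelihood test with adjustment over all genes. Between housings at ZT22, the effect of genotype (LKO minus WT, log2) was lower in GF than in SPF mice by -1.39 for Ces1e (adjusted p = 0.00817) and by -3.15 for Gpx6 (adjusted p = 0.0247). Within SPF mice, the effect at ZT22 minus the mean of the other times was 1.48 for Tef (adjusted p = 0.00107), -2.34 for Serpinb1a (0.0118), -1.24 for Pnrc1 (0.0130) and -1.61 for Clpx (0.0407). Ces1e, Tef, Pnrc1 and Clpx had at least 43.5 CPM in every SPF library of ZT22, while Gpx6 had at most 1.85 CPM there and rests on few counts.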

How the results depend on the processing

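No named gene changed direction with a call, and 49 of 68 named genes called in SPF mice at ZT22 kept the call in all 12 alternatives. The 449 calls became 690 with DESeq2, 1016 with no filter on low counts, 254 with a log2 change of at least 1 and 281 to 488 when 1 library was left out (281 without WT replicate 1, 293 without WT replicate 2). With other scaling they were 441, and 56% of them were lower in place of 54.8%. The 2 calls between housings became 11 with DESeq2, 137 with no filter and 1 to 4 with 1 library left out. The 4 calls between times became 23 with DESeq2, 288 with no filter, 45 without the 3 libraries that stood apart, 23 against ZT2, ZT6 and ZT10 and 1 to 6 with 1 library of ZT22 left out. DESeq2 gave no adjusted p for 4760 genes there. Members called over all alternatives ranged from 12 to 28 for fatty acid oxidation, 12 to 22 for conjugation, 4 to 17 for cytochrome P450 1 to 15 for cholesterol synthesis, 0 to 4 for gluconeogenesis, 0 to 6 for glucose uptake and glycolysis, 0 to 8 for glucocorticoid-responsive genes and 0 to 11 for interferon, MHC and microbial sensing genes, the highest of the last 4 with no filter on low counts, and Npas2 lost its call (edgeR adjusted p = 0.104) with all 72 libraries. The cause of these shifts was not tested. With the replicate number as a block the 3 counts were 375, 0 (457 genes at an unadjusted edgeR p under 0.05) and 6. The numbers share no stated litter or day, and deviations of same-numbered WT and LKO libraries correlated at 0.13, 0.03 and -0.08, with WT replicate 2 closest to LKO replicate 3, so the block is given here only. Genes under about 1 CPM, such as Dbp and Gpx6 in part of the libraries, are limited by depth.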

Other observations

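Transcripts of the mitochondrial genome took a smaller share of the counts in SPF LKO than in SPF WT livers at ZT22. They took 7.35% to 8.12% of the counts in WT and 5.21% to 5.59% in LKO libraries. Of 21 tested, 8 fell (1.81% of all genes did), with log2 fold changes of -0.81 to -0.60, 0 rose and 13 did not pass the test, 3 of them with a positive value (mt-Ta, mt-Tn and mt-Tc). In GF mice 6 were called, where 4.44% of all genes were. The 27 nuclear subunits of the respiratory chain held 0 calls and a median of -0.23, with 26 negative and 1 positive log2 fold change. These genes were chosen after their values were seen.

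Moxd1, a monooxygenase relative, had the largest increase of all (log2 8.75 ± 1.05, edgeR adjusted p = 2.57e-04), below the level set for the largest changes. It stood at 0.167, 0.0490 and 0 CPM in SPF WT and 12.4, 12.9 and 71.4 CPM in SPF LKO livers, and its mean was 8.36 CPM in GF WT and 467 CPM in GF LKO livers. SPF WT replicate 3 held little Per1 (0.854 CPM), Mt1 (1.76 CPM) and Pck1 (719.9 CPM) and much Bhlhe40 (125 CPM) beside the other 2 WT livers, which held 22.3 and 26, 38.7 and 11.9, 3386 and 2587, and 57.7 and 60.5 CPM.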
